A study of Mus musculus with 4 samples.

Results

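Mitochondrial ribosomal protein genes, taken as every protein-coding gene in the count tables whose mouse symbol is Mrpl or Mrps followed by a number and optional letters, were examined in kidney RNA. The rule found 78 genes among the 54532 listed, 49 named Mrpl and 29 named Mrps, on 17 chromosomes. All kidneys came from C57BL/6J mice that were injected intraperitoneally with 500 µL of pristane when 8 weeks old, and the organs were removed after a further 8 months. The WT group (2 libraries) was compared with the Zbp1-KO group (2 libraries), which carries a CRISPR-Cas9 deletion of several exons of Zbp1, the gene for a sensor of Z-form nucleic acids. The kidneys of mice without pristane were not analysed here, so the comparison is of genotype under pristane alone. Whole kidney was sequenced, and in such bulk RNA fewer cells of a type and less RNA per cell cannot be told apart. Titles number the kidneys within a genotype, but nothing else states how the replicates were drawn, so p-values measure the spread between these samples.

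Mitochondria carry their own ribosome, which translates the few proteins encoded by mitochondrial DNA, all of them subunits of the respiratory chain and ATP synthase. Its ribosomal RNAs are transcribed inside the organelle, whereas its proteins are encoded in the nucleus, made in the cytosol and imported. The large subunit joins amino acids and holds the exit tunnel for the new chain, and the small subunit holds the messenger RNA and reads its codons. Kidney tubules, above all the proximal tubule, are rich in mitochondria because salt and solute reabsorption consumes much ATP. Some symbols are historical: Mrps18a and Mrps30 encode large-subunit proteins, and Mrps36 encodes a protein of the oxoglutarate dehydrogenase complex. Sorted by role in place of name, 51 members belonged to the large subunit, 26 to the small subunit and 1 to neither.

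Total counts per library lay between 9878776 and 12921925, and genes of mitochondrial DNA took 49.5% to 61.5% of them. The members together received 17696 to 26464 counts per library, which is 0.435% to 0.458% of the counts outside mitochondrial DNA. Zbp1 itself had 94 and 125 counts in WT, and 18 and 0 counts in Zbp1-KO, counted over the whole gene. All 10 nephron markers examined, among them Kap, Aqp2 and Umod, were detected in every library.

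Nuclear genes for mitochondrial proteins are known targets of the transcription factors NRF1, GABP (of the ETS family) and YY1, so the 250 bases before each start site in the RefSeq promoter table (GRCm38.p6) were searched for their core letters on both strands. Of the 78 members, 69 were in the table. The NRF1 letters GCGCATGCG, which overlap their own reverse complement where a further C follows, stood before 7 of these 69 members (10.1%) and before 1.64% of all 27025 genes in the table, coding or not, where a gene with several promoters counted once. The ETS letters CCGGAAG stood before 18 members (26.1%) and 7.83% of all genes, and the YY1 letters AAGATGGC before 4 members (5.80%) and 1.83% of all genes. Matches of these 3 motifs shared no base in any member. The TATAAA letters were found before 7.25% of members and 14.3% of all genes, the GC box GGGCGG before 47.8% and 35.4%, and the E-box CACGTG before 7.25% and 6.86%. Over all 6 motifs, matches shared bases in 1 member, Mrpl17, where a GC box and the ETS letters share 2 bases. The stretches that follow are shown because they carry the NRF1 or ETS letters, in capitals, in named members. Those of Mrpl1 and Mrpl30, which carry neither, are shown because both genes had an unadjusted p under 0.05 by edgeR. Each is written 5′ to 3′ toward the gene, within the last 150 bases before the RefSeq start. None holds a base of an exon in GENCODE M21, and all lie on the + strand. Only named members with a single promoter in the table and at least 60 such exon-free bases in a row qualified. Only letters inside that stretch counted. Other named members with the letters, such as Mrpl17 and Mrpl32, did not qualify. Nor did Mrpl15, which had an unadjusted p of 0.0265 by edgeR. Mrpl10 is at chr11:97041432-97041559, Mrpl22 at chr11:58171514-58171660, Mrpl52 at chr14:54426759-54426908, Mrpl58 at chr11:115403602-115403751, Mrps18a at chr17:46110854-46110985, Mrpl1 at chr5:96209965-96210080 and Mrpl30 at chr1:37890412-37890476. The Mrpl1 stretch lies inside the gene as GENCODE draws it, since that model starts farther upstream.
Mrpl10: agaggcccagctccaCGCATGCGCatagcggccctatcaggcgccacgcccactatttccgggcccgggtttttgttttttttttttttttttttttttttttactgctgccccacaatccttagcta
Mrpl22: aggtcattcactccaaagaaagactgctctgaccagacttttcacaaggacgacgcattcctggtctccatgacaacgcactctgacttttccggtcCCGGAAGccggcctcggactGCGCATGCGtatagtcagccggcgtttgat
Mrpl52: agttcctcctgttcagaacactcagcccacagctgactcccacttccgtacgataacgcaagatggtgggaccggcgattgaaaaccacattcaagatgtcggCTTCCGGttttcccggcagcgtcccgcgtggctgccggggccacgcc
Mrpl58: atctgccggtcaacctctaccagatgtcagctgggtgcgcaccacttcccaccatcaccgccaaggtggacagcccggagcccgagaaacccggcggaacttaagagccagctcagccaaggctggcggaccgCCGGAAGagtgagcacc
Mrps18a: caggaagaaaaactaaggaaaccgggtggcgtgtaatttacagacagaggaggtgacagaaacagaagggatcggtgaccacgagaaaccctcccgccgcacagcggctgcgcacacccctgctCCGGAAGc
Mrpl1: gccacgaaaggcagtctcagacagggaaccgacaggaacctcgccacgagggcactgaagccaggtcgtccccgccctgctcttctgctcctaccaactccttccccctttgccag
Mrpl30: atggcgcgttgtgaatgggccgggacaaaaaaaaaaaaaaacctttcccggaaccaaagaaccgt
In Mrpl22 the NRF1 and ETS letters stand in the same stretch. The printed strand holds the ETS letters in Mrpl22, Mrpl58 and Mrps18a, and their reverse complement in Mrpl52, and the NRF1 letters of Mrpl10 are reversed in the same way. A match is a description of these letters and does not show that a factor binds there.

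**Figure D1:**
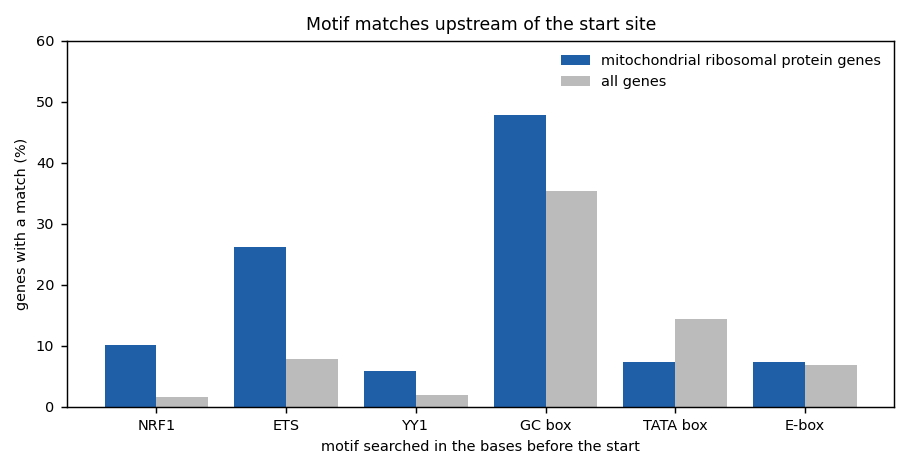
Percentage of genes with each motif in the 250 bases before the RefSeq start (vertical axis), for 69 mitochondrial ribosomal protein genes (blue) and all 27025 genes (grey). The blue bar stands above the grey bar for NRF1, ETS, YY1 and the GC box and below it for the TATA box, and the bars for the E-box are 7.25% and 6.86%.

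To describe how strongly each gene was read, TMM-scaled CPM (counts relative to library size) was divided by the length of the principal transcript (RPKM). Across the 77 members that passed the count filter, the mean level over 4 libraries ranged 52.1-fold, with a median of 13.8 RPKM and quartiles of 7.28 and 27.6. Large-subunit members had a median of 14.6 RPKM and small-subunit members of 10.03 RPKM. The typical member varied by a CV of 16.4% over the libraries, so neighbours in the middle of the order often lie within their spread.

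Mrps21, a small-subunit protein of the bacterial S21 family, had the highest level, 135 ± 12.4 RPKM (SD over 4 libraries). Mrps6 (96.9 ± 12.1 RPKM), Mrpl42 (93.4 ± 9.66 RPKM) and Mrpl52 (93.3 ± 15.3 RPKM) followed and did not differ beyond their spread. Mrpl23, a protein at the mouth of the exit tunnel, came next with 67.8 ± 6.42 RPKM, close to Mrpl54 with 67.0 ± 8.33 RPKM. At the lower end stood Mrpl17, listed here with the exit tunnel, with 2.59 ± 0.472 RPKM, and Mrpl19 with 2.63 ± 0.468 RPKM. Next came Mrpl3, a core protein near the peptidyl transferase centre, with 2.84 ± 1.11 RPKM. With the length of all annotated exons in place of the principal transcript, 3 of the 5 highest genes and 1 of the 3 lowest remained in these places, and Mrpl23 and Mrpl42 fell to 9.60 and 16.9 RPKM.

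**Figure D2:**
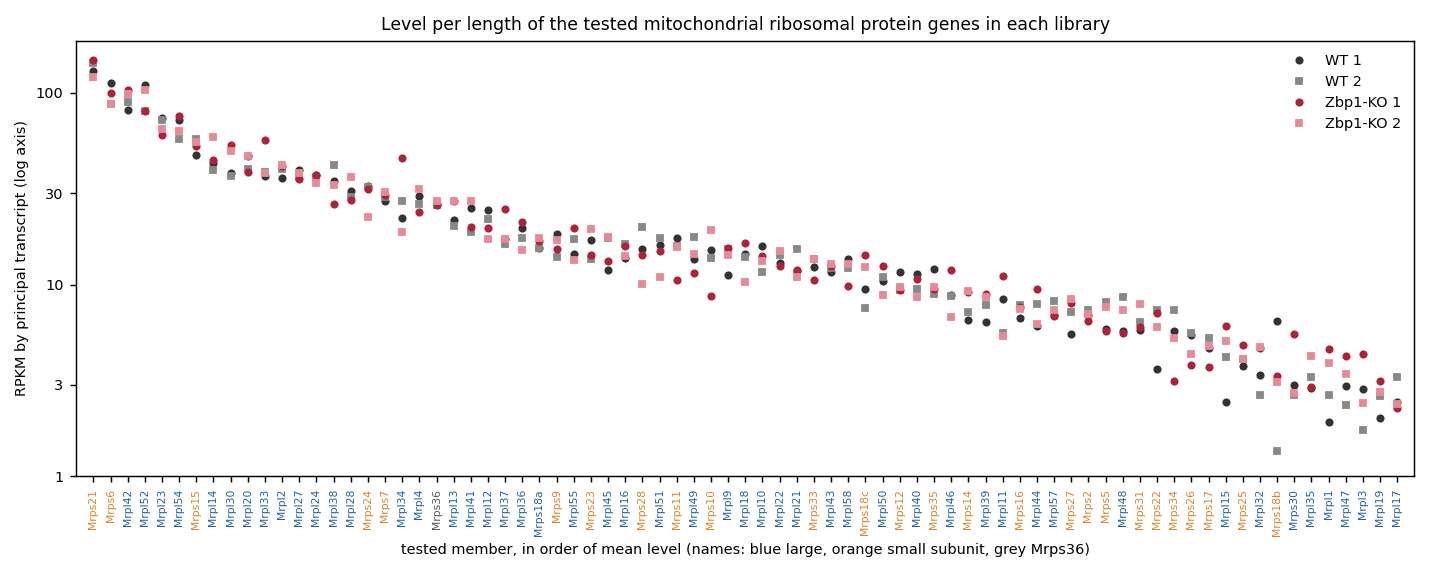
Level per length (RPKM by principal transcript, log axis) of the 77 tested members in each of the 4 libraries, ordered by mean level. Levels run from 135 RPKM for Mrps21 to 2.59 RPKM for Mrpl17, and for most genes the 4 points lie close together against this range.

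Mrpl53, a mitochondria-specific large-subunit protein, was the member that failed the filter: it had 0 counts in all 4 libraries. Under the limit of 3 counts this allows up to 0.221 to 0.323 CPM per library, counting error only. It lies at chr6:83109040-83109939 (GRCm38), where 88.0% of its exon bases are shared with Gm42688 on the same strand and Ccdc142os on the other. Whether counting by gene discarded reads from the shared bases was not tested, and the value does not show that the gene is silent. Of the 77 other members, 32 shared some exon base with another gene, and Mrps34 (77.8%) and Mrps25 (69.8%) shared more than 50%.

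To ask whether the loss of Zbp1 altered these genes, Zbp1-KO was compared with WT by edgeR's quasi-likelihood test over all 14908 genes that passed the filter. No member was called at an adjusted p under 0.05, and 0.0134% of all tested genes (2 genes, Cfd and Lars2) were called. The smallest adjusted p of a member was 0.999. At an unadjusted p under 0.05, 3 members were higher in Zbp1-KO (3.90%, against 1.91% of all genes) and 0 were lower (against 1.97% of all genes). The edgeR exact test and the DESeq2 Wald test likewise called 0 members, with 3 and 2 members higher and none lower at an unadjusted p under 0.05. The standard errors of the members' log2 fold changes had a median of 0.26 and reached 0.73. Changes of moderate size in single genes were therefore not detectable with 2 libraries per group. Larger ones could be missed too: Zbp1 itself, at −3.64 ± 0.89, had an adjusted p of 0.999 by the same test. The absence of calls does not show that the levels were equal.

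As a group the members stayed near the centre of the transcriptome. Their median log2 fold change was 0.02, with quartiles of −0.11 and 0.24, while the median of all tested genes was −0.01. Of the tested members 41 lay above 0 and 36 below. Only 5 differed by more than 1.5-fold, namely Mrpl1, Mrpl15, Mrpl32, Mrps18c and Mrps34, and 0 by more than 2-fold. Their summed level was 1875 and 1897 CPM in WT against 1951 and 1906 CPM in Zbp1-KO. Both Zbp1-KO values lay above both WT values for 18 members (23.4%, against 16.0% of all genes), and below them for 10 members (13.0%, against 16.3% of all genes). For the other 49 tested members the groups overlapped.

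**Figure D3:**
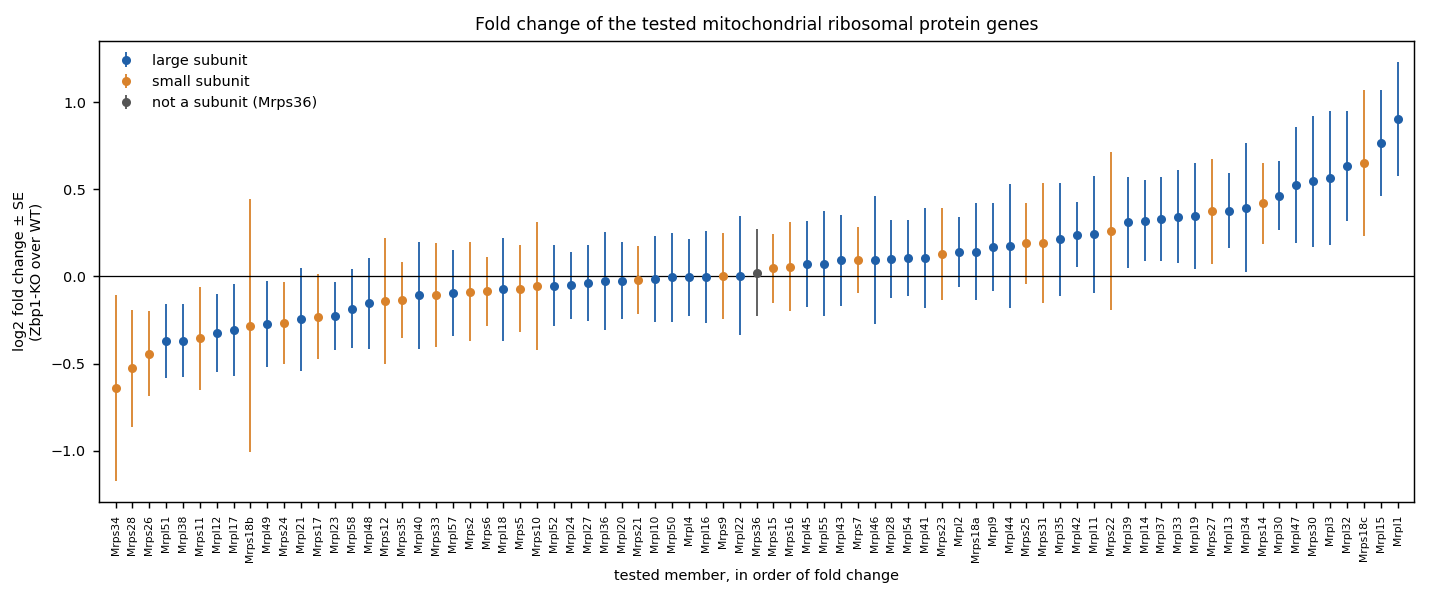
Log2 fold change of Zbp1-KO over WT with its standard error (vertical axis) for the 77 tested members in order, large subunit in blue, small subunit in orange and Mrps36 in grey. Values run from −0.64 for Mrps34 to 0.90 for Mrpl1, and 48 of the error bars cross 0.

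The medians of the subunits had opposite signs. Large-subunit members had a median log2 fold change of 0.09, with 29 above 0 and 21 below, and 13 non-overlapping higher (26%) against 5 lower (10%). Small-subunit members had a median of −0.06, with 11 above 0 and 15 below, and 5 non-overlapping in each direction (19.2%), where all genes had 16.0% higher and 16.3% lower. Both medians were uncertain: without Zbp1-KO replicate 1 they became 0.03 and 0.05. The difference between the subunits was not tested. By ancestry, the 46 members with a bacterial counterpart had a median of 0.00 and the 30 tested mitochondria-specific members of 0.08. Library medians of the centred log2 CPM were −0.06 and −0.01 in WT, and 0.04 in each Zbp1-KO library.

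**Figure D4:**
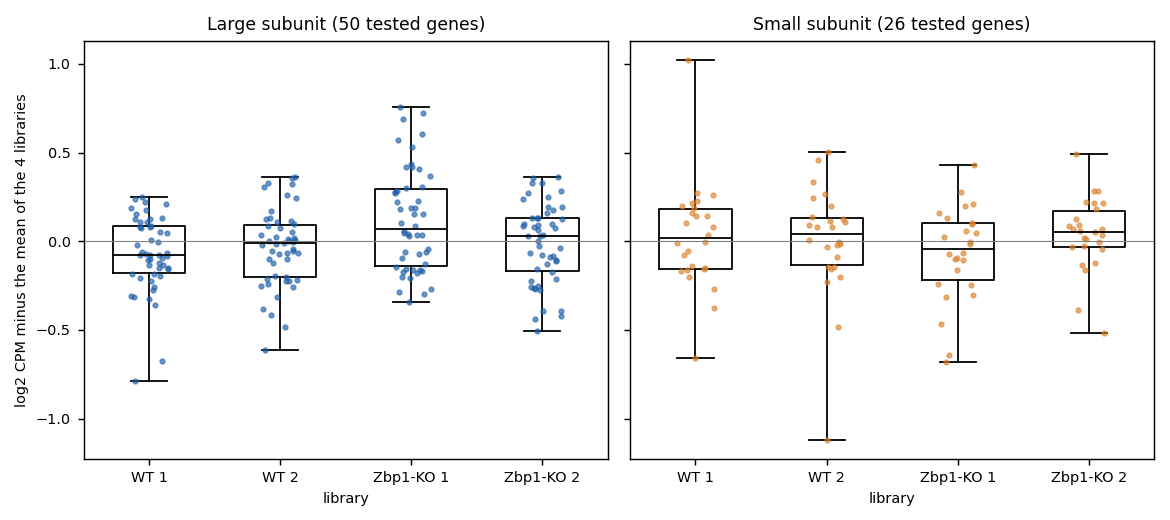
Log2 CPM of each tested member minus its mean over the 4 libraries (vertical axis), by library, for 50 large-subunit and 26 small-subunit genes. Boxes show the quartiles and median and whiskers the full range. For the large subunit the library medians are −0.08 and −0.01 in WT and 0.07 and 0.03 in Zbp1-KO, small beside the spread of the genes in any library.

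Among the members that were higher in both Zbp1-KO libraries, Mrpl1 led. Mrpl1 (chr5:96209493-96266727, GRCm38) encodes a protein of the mobile stalk through which spent transfer RNAs leave the ribosome. It had 6.84 and 9.41 CPM in WT against 16.4 and 13.9 CPM in Zbp1-KO. This gave a log2 fold change of 0.90 ± 0.33 (SE), an unadjusted p of 0.0179 and an adjusted p of 0.999 by edgeR's quasi-likelihood test. Both Zbp1-KO values were above both WT values, yet the difference did not pass the test over all genes.

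Mrpl15, a core protein of the large subunit (chr1:4773206-4785739, GRCm38), had 10.2 and 17.5 CPM in WT against 25.7 and 21.4 CPM in Zbp1-KO. The fitted change on the log2 scale was 0.77 ± 0.30, with an unadjusted p of 0.0265 by edgeR. Here the WT replicates stood apart, and the log2 fold change was 0.43 without WT replicate 1 and 1.21 without WT replicate 2. Mrpl30, a small core protein of the large subunit, was the more even case: it had 37.0 and 35.8 CPM in WT against 52.0 and 48.3 CPM in Zbp1-KO. The fitted log2 change was 0.46 ± 0.20, with an unadjusted p of 0.0375 by edgeR. None of these genes was at an unadjusted p under 0.05 when WT replicate 1 or Zbp1-KO replicate 1 was left out.

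Mrpl32, a protein that is cut to its mature form by the inner-membrane m-AAA protease before it joins the ribosome, had 10.1 and 8.04 CPM in WT against 14.0 and 14.2 CPM in Zbp1-KO (log2 fold change 0.63 ± 0.32). Mrps18c, a small-subunit member of the S18 family, had 6.03 and 4.79 CPM in WT against 9.14 and 7.86 CPM in Zbp1-KO (0.65 ± 0.42). Mrpl47, which sits beside the exit tunnel, had 9.97 and 7.95 CPM in WT against 14.3 and 11.4 CPM in Zbp1-KO (0.52 ± 0.33). These 3 genes were separated by group but were read at a low level, and none had an unadjusted p under 0.05. Without Zbp1-KO replicate 1 the value of Mrpl47 was 0.35.

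On the opposite side, Mrps34, a small-subunit protein needed for stability of the small ribosomal RNA, had 5.23 and 6.76 CPM in WT against 2.88 and 4.85 CPM in Zbp1-KO. Its log2 fold change of −0.64 ± 0.53 was the lowest of all members, and its exons overlap Mapk8ip3 and Nme3. Mrps28 had 11.98 and 15.7 CPM in WT against 11.2 and 7.86 CPM in Zbp1-KO (−0.53 ± 0.33). Mrps26 had 23.2 and 23.9 CPM in WT against 16.2 and 18.5 CPM in Zbp1-KO (−0.44 ± 0.25). Mrps26 had an unadjusted p of 0.0963 by edgeR, and its replicates lay close together in each genotype. Mrps34 and Mrps28 rested on single libraries: without Zbp1-KO replicate 1 they stood at −0.30 and −0.81, so that Mrps34 was no longer the lowest, and without Zbp1-KO replicate 2 at −1.06 and −0.30. Without WT replicate 2 Mrps28 stood at −0.32.

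Mrpl51, a mitochondria-specific large-subunit protein, had 54.8 and 60.2 CPM in WT against 51.4 and 37.5 CPM in Zbp1-KO (−0.37 ± 0.21). Mrpl38, a protein of the central protuberance, had 48.9 and 59.1 CPM in WT against 37.3 and 46.4 CPM in Zbp1-KO (−0.37 ± 0.21). Mrps11, on the platform of the small subunit, had 18.5 and 16.7 CPM in WT against 11.1 and 16.5 CPM in Zbp1-KO (−0.36 ± 0.30). In Mrpl51 and Mrps11, 1 Zbp1-KO library lay close to WT and the other did not. Without Zbp1-KO replicate 1 Mrpl51 stood at −0.62 and Mrps11 at −0.09, and without Zbp1-KO replicate 2 at −0.16 and −0.66. Mrpl38 stood at −0.22 without Zbp1-KO replicate 1 and at −0.23 without WT replicate 2.

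**Figure D5:**
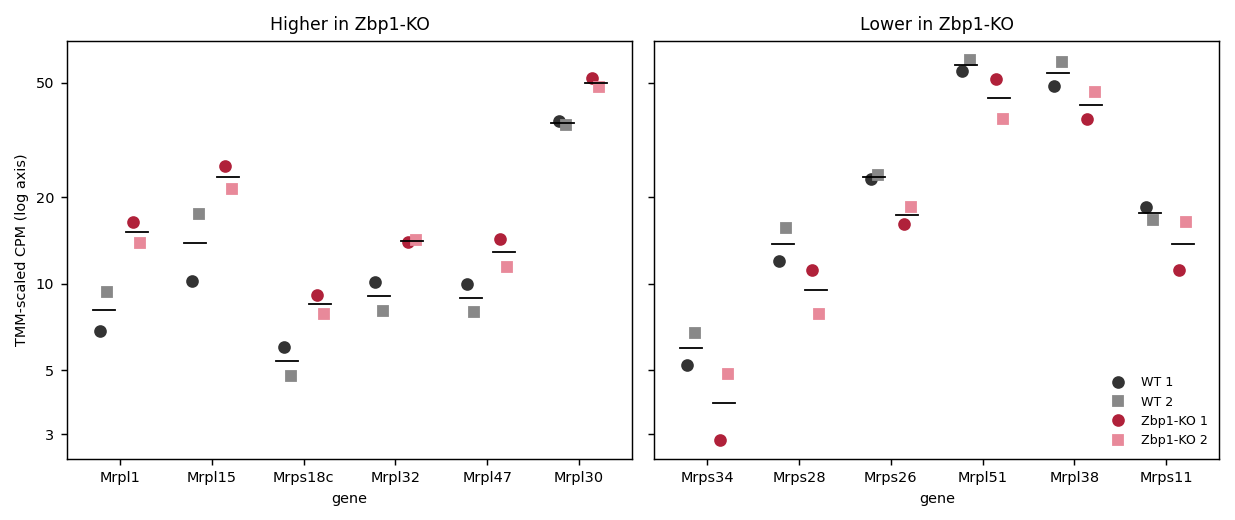
TMM-scaled CPM (log axis) in each library for the 6 members with the largest non-overlapping difference in each direction, with group means as bars. WT and Zbp1-KO points do not overlap in any of the 12 genes, which is how they were chosen.

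The members were next described by their place in the ribosome. In the stalk that recruits translation factors, Mrpl12, which is also known to bind the mitochondrial RNA polymerase, had 32.2 and 28.9 CPM in WT against 26.1 and 22.6 CPM in Zbp1-KO (log2 fold change −0.32 ± 0.23). Mrpl10, its anchor, had a log2 fold change of −0.02 ± 0.25. Mrpl11 had 25.7 and 17.0 CPM in WT against 33.9 and 16.4 CPM in Zbp1-KO, so that within each genotype replicate 1 was the higher.

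Of the 7 members listed for the exit tunnel, a list that need not be complete, 4 lay above 0 and 3 below, with a median of 0.00. Mrpl17 (−0.31 ± 0.27) and Mrpl23 (−0.23 ± 0.19) were non-overlapping lower and Mrpl47 higher. Mrpl45, which tethers the ribosome to the inner membrane, had 28.8 and 42.8 CPM in WT against 32.3 and 43.0 CPM in Zbp1-KO (0.07 ± 0.25), with a wider gap within a genotype than between them. Mrpl22 (0.00 ± 0.34), Mrpl24 (−0.05 ± 0.19) and Mrpl44 (0.17 ± 0.35) overlapped between groups.

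The central protuberance, the part of the large subunit that faces the small subunit and the transfer RNAs, had 2 members above 0 and 6 below, with a median of −0.09. Mrpl38 was its non-overlapping member. Mrpl58, a peptidyl-tRNA hydrolase that is built into the ribosome, had 35.3 and 31.6 CPM in WT against 25.6 and 33.3 CPM in Zbp1-KO (−0.19 ± 0.23). Fitted log2 values for Mrpl18, Mrpl27, Mrpl40, Mrpl46, Mrpl48 and Mrpl55 ran from −0.16 for Mrpl48 to 0.10 for Mrpl46.

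Near the peptidyl transferase centre, where amino acids are joined, Mrpl2 had 37.1 and 41.4 CPM in WT against 42.8 and 43.5 CPM in Zbp1-KO (0.14 ± 0.20). Mrpl3 had 11.3 and 6.93 CPM in WT against 17.3 and 9.59 CPM in Zbp1-KO (0.56 ± 0.39), again with replicate 1 above replicate 2 in each genotype. Mrpl16 had a log2 fold change of 0.00 ± 0.26.

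Along the messenger RNA path and the decoding site of the small subunit, 1 of 5 members lay above 0 and 4 below, with a median of −0.14. Mrps7 was the steadiest, with 53.7 and 55.9 CPM in WT against 57.6 and 59.5 CPM in Zbp1-KO (0.09 ± 0.19). Mrps24 had 32.7 and 32.2 CPM in WT against 31.3 and 22.3 CPM in Zbp1-KO (−0.27 ± 0.24), a difference carried by 1 library. Mrps12 (−0.14 ± 0.36), which guards decoding accuracy, and Mrps5 (−0.07 ± 0.25) overlapped between groups. No test between regions was made.

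The members of historical name gave no common direction. The 3 genes of the S18 family differ in where their products sit: Mrps18c (0.65 ± 0.42) and Mrps18b (−0.28 ± 0.73) serve the small subunit, and Mrps18a (0.14 ± 0.28) the large one. Mrps18b had 6.997 and 1.45 CPM in WT against 3.61 and 3.34 CPM in Zbp1-KO, which is the widest standard error of all members and rests on a WT pair that disagreed. Mrps30 had 9.97 and 8.81 CPM in WT against 18.2 and 9.05 CPM in Zbp1-KO (0.55 ± 0.37). Mrps36, outside the ribosome, had 18.4 and 18.3 CPM in WT against 18.1 and 19.2 CPM in Zbp1-KO (0.02 ± 0.25), the most even of the members described here.

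Replicate spread was as large as the difference between genotypes for most members. The median absolute log2 gap was 0.23 between the WT replicates and 0.26 between the Zbp1-KO replicates, against a median absolute log2 fold change of 0.17. For 59 of the 77 tested members at least 1 replicate pair differed by more than the genotypes did. The same count was not made over all genes, so it does not set the members apart. Zbp1-KO replicate 1 held the highest value of 24 members and the lowest value of 22. Mrps18b had a wide gap between the WT replicates, as given above. Mrpl34, picked after its values were seen, had a wide gap between the Zbp1-KO replicates, with 13.4 and 16.6 CPM in WT against 27.7 and 11.4 CPM in Zbp1-KO.

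Some subunits of the mitochondrial ribosome carry other names and were listed separately. Dap3, a GTP-binding protein of the small subunit, had 52.0 and 60.6 CPM in WT against 49.1 and 53.3 CPM in Zbp1-KO (−0.14 ± 0.20). Ptcd3, an RNA-binding small-subunit protein, had 13.9 and 10.01 CPM in WT against 9.51 and 24.8 CPM in Zbp1-KO (0.51 ± 0.41). Aurkaip1 (−0.10 ± 0.19), Chchd1 (0.06 ± 0.36) and Gadd45gip1 (−0.14 ± 0.56) overlapped between groups, as did the first 2. Thus 0 of these 5 genes were separated by genotype, where all genes had 16.0% higher and 16.3% lower. With 5 genes this count says little.

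The ribosomal RNAs and the leucyl-tRNA synthetase of mitochondria were examined beside the proteins. The small ribosomal RNA mt-Rnr1 had 4246 and 6959 CPM in WT against 5174 and 8000 CPM in Zbp1-KO (0.23 ± 0.26). The large ribosomal RNA mt-Rnr2 had 6673 and 11681 CPM in WT against 7155 and 12117 CPM in Zbp1-KO (0.07 ± 0.29). In both, replicate 2 was the higher in each genotype, and both were measured after polyA selection. Lars2, which charges leucine transfer RNA, rose from 337 and 311 CPM in WT to 860 and 1053 CPM in Zbp1-KO (1.56 ± 0.19, adjusted p of 0.0225 by edgeR). It was called, whereas no ribosomal protein gene was.

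Of 26 mitoribosome assembly genes, 11 lay above 0 and 15 below (median −0.07), and 0 were called. The lowest and highest were Rpusd3, a pseudouridine synthase (−1.87 ± 1.05), and Tfb1m, which methylates the small ribosomal RNA (1.39 ± 0.79), with Noa1 (−0.66 ± 0.57) and Mrm2 (0.74 ± 0.41) next. Tfb1m had 2.17 and 1.45 CPM in WT against 7.74 and 1.72 CPM in Zbp1-KO, so its difference came from 1 library. Of 13 translation factors, 3 lay above 0 and 10 below (median −0.10), and 0 were called. Tufm, the elongation factor that delivers transfer RNA, had 34.8 and 35.1 CPM in WT against 46.5 in each Zbp1-KO library (0.41 ± 0.20). Mtrf1, a release factor relative, had 4.10 and 4.62 CPM in WT against 1.47 and 1.08 CPM in Zbp1-KO (−1.75 ± 0.73, unadjusted p of 0.0331 by edgeR). Tsfm (−0.45 ± 0.40) and Mtif3 (0.32 ± 0.35) overlapped between groups.

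Genes that act on transcription of mitochondrial DNA and its RNA (10 genes, median 0.06) held 5 above and 5 below 0, with 0 called. Slirp (0.79 ± 1.29) and Tfam, which packages mitochondrial DNA (0.43 ± 0.30), were the highest, and Mterf1a (−0.86 ± 0.68) and Tefm (−0.53 ± 0.61) the lowest. Among 9 regulators of mitochondrial biogenesis the median was −0.11 and 0 were called. Nrf1, whose letters were searched above, had 14.6 and 16.7 CPM in WT against 13.6 and 10.7 CPM in Zbp1-KO (−0.36 ± 0.30). Pprc1 (−0.77 ± 0.46) was the lowest, and Gabpa, the DNA-binding subunit of GABP (0.33 ± 0.28), and Ppargc1b (0.31 ± 0.46) were the highest. General mitochondrial proteins (10 genes, such as Cs and Vdac1) had a median of 0.00 and 0 calls, with Timm23 (−0.78 ± 0.33) and Tomm40 (−0.29 ± 0.22) at the lower end and Hspd1 (0.17 ± 0.22) and Cycs (0.12 ± 0.19) at the upper end.

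Beside other large complexes the picture was as follows. Nuclear complex I subunits (36 tested) had a median log2 fold change of 0.04, with 5 non-overlapping higher (13.9%) and 7 lower (19.4%). Cytosolic ribosomal protein genes (78 tested of 84) had a median of −0.06, with 5 non-overlapping higher (6.41%) and 33 lower (42.3%), and 17 lay above 0 and 61 below. In the mitochondrial set the corresponding shares were 23.4% and 13.0%, and over all genes 16.0% and 16.3%. No gene of these sets was called, and the difference between them was not tested.

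Members with and without the promoter letters had medians near 0. The 7 members with NRF1 letters had a median log2 fold change of 0.00, from −0.31 for Mrpl17 to 0.63 for Mrpl32. The 17 tested members with ETS letters had a median of 0.00, from −0.44 for Mrps26 to 0.65 for Mrps18c, and all 1592 tested genes with these letters had −0.02. The 4 members with YY1 letters had a median of −0.08. The 43 members with none of the 3 had 0.07. These are descriptions without a test.

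A further feature that the choice by name did not use was the arrangement of the genes. Of the 78 members, 33 (42.3%) had a protein-coding neighbour that starts on the opposite strand within 1000 bases, head to head, against 10.8% of 21995 protein-coding genes. Such pairs include Mrps12 with Sars2, the seryl-tRNA synthetase of mitochondria, Mrpl43 with Twnk, the helicase of mitochondrial DNA, Mrpl36 with Ndufs6 of complex I, and Mrps11 with Mrpl46, both members. The sign of the log2 fold change was shared in 17 of the 29 cases whose neighbour was tested, where Mrps11 and Mrpl46 count once from each side. The same share was not computed for other genes. Mrps11 (−0.36) and Mrpl46 (0.10) differed in sign, as did Mrps12 (−0.14) and Sars2 (0.18), whereas Mrpl43 (0.09) and Twnk (0.20) did not. Neighbours with overlapping exons, such as Mrpl43 and Twnk (33.4% of the Mrpl43 exon bases), cannot be told apart where the counting did not use the strand.

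Among the markers of other tissues, those of fat differed most between the genotypes. All 6 fat markers, among them Adipoq, Cidec and Retn, were higher in Zbp1-KO, with a median log2 fold change of 2.21. All 6 were at an unadjusted p under 0.05 by edgeR (against 1.91% of all genes higher), and 0 were called. Cfd, an adipocyte gene that was called over all genes, was not among these 6. Their summed level was 71.8 and 104 CPM in WT against 187 and 172 CPM in Zbp1-KO. T cell markers (5 of 6 tested, median 0.89) summed to 9.49 and 7.36 CPM in WT against 17.8 and 14.97 CPM in Zbp1-KO. Of the 5 tested, 2 were non-overlapping higher (40%, against 16.0% of all genes). None of the 5 was at an unadjusted p under 0.05 by edgeR. Their counts were low, for example 16 and 1 in WT against 19 and 10 in Zbp1-KO for Cd3d. The nephron markers had a median of 0.14. Among them Aqp2, the water channel of the collecting duct, had 903 and 1061 CPM in WT against 730 and 530 CPM in Zbp1-KO (−0.64 ± 0.20, unadjusted p of 0.00866 by edgeR), and no other nephron marker had an unadjusted p under 0.05. The myeloid markers had a median of 0.05, the endothelial markers of −0.02 and the 4 tested B and plasma cell markers of −0.21. The part of these differences in the values of the ribosomal protein genes was not tested.

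Base composition moved weakly with the values. Over the 77 members the Spearman correlation of the GC content of the transcript with the log2 fold change was −0.28, and over 13359 tested coding genes it was −0.11, both across genes of the same 4 libraries. Members at or below the median GC of 50.1% had a median log2 fold change of 0.06, and those above it of −0.01. With transcript length the correlation over the members was 0.06, and with mean level −0.19.

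Processed pseudogenes of the family were left out of the set. Among the 5 listed, Mrpl23-ps1 had 60 and 35 counts in WT, and 50 and 49 counts in Zbp1-KO, and the others had at most 13 counts in a library. Reads of Mrpl23, Mrpl48 and Mrps36 that fit a pseudogene as well would have been lost from unique mapping, so their levels are uncertain.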

How the data were processed

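Per the labels and the study's methods, polyA RNA of 4 kidneys was prepared with a TruSeq v2 kit by a strand-specific protocol. The libraries were sequenced as read pairs, trimmed, aligned with HISAT2 to mm10 and counted per gene with featureCounts from uniquely mapped pairs. Versions, and whether the counting used the strand, are not given in the sources used here. The deposited values are whole-number counts, not normalized, and GEO titles gave the groups. Symbols and positions were taken from GENCODE M21 (54495 of 54532 IDs matched).

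Genes were tested with edgeR 4.0.16 in R 4.3.3 (filterByExpr with minimum count 10 and minimum total 15, TMM, quasi-likelihood F test, two-sided, Benjamini-Hochberg over 14908 genes). Positive log2 fold changes mean higher in Zbp1-KO, fitted with a prior count of 0.125, and the SE is the absolute value divided by the square root of F. The procedure was tested on simulated data. Centred log2 CPM used a prior count of 2. The limit of a count of 0 was 3 counts. With 2 against 2 libraries the smallest two-sided exact permutation p is 0.333, so no such test was used.

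Genes named were those failing the filter, those in the listed ribosome regions, Mrps18a, Mrps18b, Mrps18c, Mrps30 and Mrps36, the 5 highest and 3 lowest per length, the 6 largest non-overlapping changes in each direction with a mean of at least 1 CPM, and in each other list the called genes and the 2 largest changes in each direction. Members and lists were chosen with earlier results of these data known. Alternatives were size factors of the DESeq2 kind, computed as edgeR's RLE factors, both other filters, the edgeR exact test, DESeq2 1.42.0 with the TMM library sizes, the replicate block, leaving out genes of mitochondrial DNA, and each library left out. The length of all exons was added after the data were seen.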

Additional observations from a re-analysis of the deposited data

How the results depend on the processing

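No alternative called a member. The number of all genes called was 2, and became 41 with all genes of at least 1 count, 14 by the edgeR exact test, 9 by DESeq2, 4 without genes of mitochondrial DNA and 0 to 15 when a library was left out. In those last fits 1 group holds a single library, which is assumed to vary like the other group. They gave 0 to 8 members higher and 0 to 1 lower at an unadjusted p under 0.05 (8 without Zbp1-KO replicate 2, and 0 higher without WT replicate 1 or Zbp1-KO replicate 1). The share of all genes past that limit is not given for these fits. The member counts therefore cannot be set against the 1.91% of all genes higher in the main fit, and do not set the members apart. In the same fits the median log2 fold change lay between 0.0148 and 0.0555 over the members. It lay between 0.0296 and 0.113 over the large subunit and between −0.0902 and 0.0505 over the small subunit. With all genes of at least 1 count the members' median was 0.0122.

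Taken across all tested genes, same-numbered libraries did not deviate together (Pearson r of 0.00399). With so few libraries this value cannot show whether they share more than a number, which was not tested. With the replicate block 11 genes and 0 members were called, and the members' median was 0.04.

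Non-overlapping members were 19 higher and 10 lower with RLE factors, and 18 and 10 without genes of mitochondrial DNA. The shares over all genes, 16.0% higher and 16.3% lower, were computed with the main scaling only. Of 484 values of the 44 named tested members under an alternative, 468 moved by less than the replicate SD. Leaving out a library shifts a value by part of the same replicate gaps from which that SD was taken. Staying under the SD was thus largely set in advance, and the count of 468 does not show that the values were stable. Of the 484 values, 38 took the other sign, 35 of them with a library left out and 0 among the 12 largest changes.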
